A study of Homo sapiens with 8 samples.

Results

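The NK homeobox genes encode transcription factors that bind DNA through a homeodomain and set the identity of tissues in the embryo. Of this family, the 9 genes NKX2-2, NKX2-3, NKX2-4, NKX2-5, NKX2-8, NKX3-2, NKX6-1, NKX6-2 and NKX6-3 were examined here, chosen by name and not the whole family: NKX2-1, which marks the lung lineage, and others such as NKX2-6 were not among them. They were 9 of the 20163 protein-coding genes annotated on chromosomes 1 to 22, X and Y. For each gene the stretch from the gene end to 2000 bp upstream of the gene start was taken on GRCh37 (hg19), and the number of base pairs covered by enriched islands was counted. The cells were PC9, an established human lung adenocarcinoma line, treated for 5 days either with the vehicle DMSO or with 1 μM GSK126, a small molecule inhibitor of EZH2. Chromatin immunoprecipitation with sequencing (ChIP-seq) was performed for H3K27me3 and for H3K4me3, with 2 libraries per treatment and mark, 8 libraries in all. In every group a small amount of Drosophila chromatin and an antibody against a Drosophila histone variant had been added to the reaction.

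EZH2 is the catalytic subunit of Polycomb repressive complex 2, which places H3K27me3, and genes for developmental transcription factors are well known carriers of this mark in tissues where they are silent. H3K4me3 sits at the starts of active genes and of genes held poised, and poised genes carry H3K27me3 as well. NKX2-2 and NKX6-1 act in the ventral neural tube and in beta cells of the pancreas, NKX6-2 in neural and oligodendrocyte development, NKX2-5 in the heart, NKX2-3 in the mesenchyme of gut and spleen, NKX3-2 in the axial skeleton and NKX6-3 in the stomach. NKX2-4 is a close relative of NKX2-1, and NKX2-8 lies beside NKX2-1 on chromosome 14.

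The files held 14 lists of islands, each made from a single library. An island is a run of 200-bp windows with more tags than a random background gives. Each H3K27me3 library had a spike-in list, in which human tags had been removed according to the number of Drosophila tags, and a standard list, in which the libraries of a replicate held equal numbers of human tags. For H3K4me3 both kinds of list existed with GSK126, but with DMSO only the standard one, which served in both comparisons. The background of a list, read from its island scores, was 1.65 and 2.33 tags per window in the H3K27me3 DMSO spike-in lists of replicates 1 and 2 and 0.382 and 0.455 in the GSK126 spike-in lists. These GSK126 backgrounds were 23.1% and 19.6% of the DMSO backgrounds. For H3K4me3 with DMSO it was 1.77 in replicate 1 and 0.302 in replicate 2, so that replicate 2 of this mark was the shallower. H3K4me3 islands lay within 500 bp of the gene start in all 4 H3K4me3 libraries at 4 of 5 epithelial marker genes, all but EPCAM, which had one in 2 libraries. The same held for 2 of 4 lung adenocarcinoma markers (EGFR and NKX2-1), whereas NAPSA and SFTPB had none. No marker of leukocytes (0 of 3) or fibroblasts (0 of 2) had such an island in any library, and of the 4 neuroendocrine markers SYP alone had one, in 1 library.

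With DMSO the 9 NKX genes were spread over 4 states. H3K27me3 islands were present over 5 of the 9 genes in both DMSO replicates (27.6% of all protein-coding genes), and H3K4me3 islands over 4 of 9 (67.8%). NKX2-2, NKX2-3 and NKX6-3 carried H3K27me3 without H3K4me3, a state of 12.5% of all genes. NKX2-5 and NKX3-2 carried both marks, a state of 13.1%. NKX2-8 and NKX6-1 carried H3K4me3 without H3K27me3, a state of 51.9%. NKX2-4 and NKX6-2 had no island of either mark in any of the 14 lists, as did 14.2% of all genes. No 2 members shared an island, so the 9 genes were 9 separate loci, and the only other protein-coding gene under the same H3K27me3 island as a member in DMSO replicate 1 was ANK1, which shared that of NKX6-3. The marks were measured in bulk chromatin, in which fewer cells with a mark and less mark per cell cannot be told apart, and no RNA was measured in these files.

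**Figure D1:**
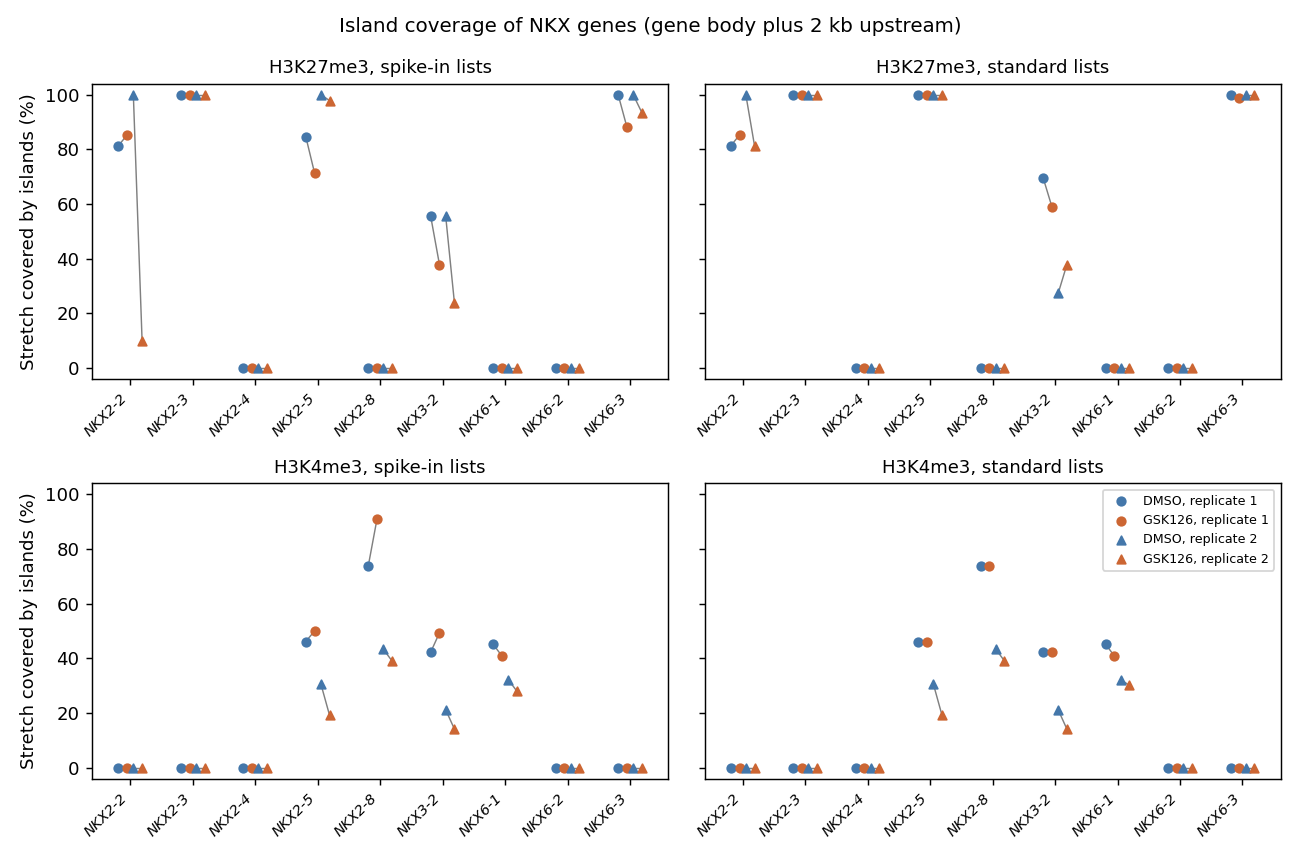
Share of each NKX gene stretch (gene body plus 2 kb upstream, in percent) covered by H3K27me3 islands (upper plots) and H3K4me3 islands (lower plots), in the spike-in lists (left) and the standard lists (right). Blue points are DMSO and orange points GSK126, circles are replicate 1 and triangles replicate 2, and a line joins the libraries of a replicate. NKX2-3 stays at 100% for H3K27me3 in every list, NKX3-2 falls from 55.4% to 37.8% and 23.7% in the spike-in lists, and 4 genes are at 0% throughout for this mark.

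When GSK126 was compared with DMSO within each replicate in the spike-in lists, none of the 5 marked genes among the 9 lost its H3K27me3 islands entirely. Of the 5 members with an island, 3 had a smaller covered share with GSK126 in both replicates (NKX2-5, NKX3-2 and NKX6-3), against 77.4% of the 6456 genes with an island in any of these 4 lists. These 77.4% were 4999 genes, and they could only come from the 5573 genes with an island in both DMSO replicates. All 5 members had an island in both DMSO replicates, so 4999 of 5573 is the closer background. NKX2-3 did not change in covered share in either replicate (1 of 5, against 2.14% of genes), and NKX2-2 moved in opposite directions in the replicates. Both GSK126 values lay below both DMSO values for 2 of 5 members (NKX3-2 and NKX6-3), against 75% of the 6456 genes. These were 4845 genes, again all among the 5573. Loss of every island, present in both DMSO replicates and in neither GSK126 replicate, was found for 0 of 5 members and for 32% of the 5573 genes that could show it. None of the 4 members without an island with DMSO gained one in both replicates (0.0146% of 13723 genes did). Over all 9 members, of which 4 had no island and so a difference of 0, the mean difference in covered share was -4.30 percentage points in replicate 1 and -14.5 in replicate 2, that is -9.40 ± 7.21 (SD, n = 2). Over the 5 members with an island it was -7.75 and -26.1, beside means of -20.6 and -22.1 over the 6456 genes. These sets are not alike, since some of the 6456 genes had no island in a DMSO replicate and could not fall there. The mean of the members was above that of the 6456 genes in replicate 1 and below it in replicate 2, where NKX2-2 alone changed by -90.1. The medians were -11.8 and -6.61 over the 5 members with an island and -14.3 and -15.3 over these genes. No p-value is given for any of these differences, since 2 pairs allow none smaller than 0.5 in an exact sign-flip test and 2 against 2 libraries none smaller than 0.333 in an exact permutation test.

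NKX2-3 (chr10:101292699-101296281, plus strand) was the marked member whose cover did not change. All 5583 bp of its stretch lay under H3K27me3 in all 8 H3K27me3 lists. In the spike-in lists its island was 13.6 kb and 22.4 kb long with DMSO and 11.6 kb and 21.8 kb with GSK126. The standard lists gave 15.2 kb and 12 kb with DMSO and 24.2 kb and 24 kb with GSK126. The island was therefore shorter with GSK126 in both replicates of the spike-in lists and longer in both of the standard lists, while the gene itself stayed inside it. In replicate 2 of the spike-in lists it ran from position -3098 to 19301 with DMSO and from -12698 to 9101 with GSK126. With 5000 bp upstream the covered share in these lists changed by -2.33 and 16.3 percentage points in replicates 1 and 2. No H3K4me3 island came closer than 80.5 kb in any list. The 250 bp upstream of its RefSeq start are shown because they lay wholly under H3K27me3 with DMSO and with GSK126 alike, and their 16 CpG sites are in capitals.
NKX2-3 promoter, chr10:101292449-101292698, plus strand: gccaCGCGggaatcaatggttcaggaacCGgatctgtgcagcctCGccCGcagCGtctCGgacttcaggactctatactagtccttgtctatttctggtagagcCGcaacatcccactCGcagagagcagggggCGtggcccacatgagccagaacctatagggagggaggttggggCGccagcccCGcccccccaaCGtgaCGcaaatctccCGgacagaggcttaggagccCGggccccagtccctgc

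NKX2-2 (chr20:21491655-21494702, minus strand) differed most between the replicates. In the spike-in lists its H3K27me3 islands covered 4102 bp and 5048 bp of the 5048-bp stretch with DMSO, and 4302 bp and 502 bp with GSK126. Expressed as shares, the DMSO values came to 81.3% and 100% and the GSK126 values to 85.2% and 9.94%, so the groups overlapped and replicate 2 alone fell. The mean difference was -43.0 ± 66.5 percentage points (SD, n = 2), smaller than the spread between replicates. The island of GSK126 replicate 2 was 10.4 kb long and lay upstream of the gene, from position -11898 to position -1499 relative to the gene start (negative positions are upstream). The DMSO island of replicate 1 spanned positions -12698 to 2101, that of replicate 2 positions -11898 to 6501, and the GSK126 island of replicate 1 positions -6698 to 2301. The standard list of GSK126 replicate 2 covered 4102 bp of the stretch. In the RefSeq annotation NKX2-2 also has a start 8625 bp upstream of the GENCODE gene start, outside the stretch counted here. The 250 bp before that start lay wholly under H3K27me3 in both DMSO and in both GSK126 spike-in lists. In GSK126 replicate 1 this was a separate island of 3.8 kb, from position -11298 to position -7499, with a score of 48.3 where the lowest score of that list was 31.6. The 250 bp before a second RefSeq start, 1104 bp inside the gene, were covered in full in 3 of these lists and not at all in GSK126 replicate 2. Positions -6698 to -1499 also lay under H3K27me3 in every spike-in list. The upstream sequence is shown as a part of the locus that lay under an island in each of these lists, with its 22 CpG sites in capitals.
NKX2-2 upstream promoter, chr20:21503328-21503577, minus strand: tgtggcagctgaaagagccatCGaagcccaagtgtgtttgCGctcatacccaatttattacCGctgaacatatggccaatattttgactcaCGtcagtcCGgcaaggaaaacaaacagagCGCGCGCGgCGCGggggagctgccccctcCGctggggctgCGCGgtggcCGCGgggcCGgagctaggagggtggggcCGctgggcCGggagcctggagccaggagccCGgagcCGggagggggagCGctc

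NKX6-3 (chr8:41502696-41508336, minus strand) was covered over all of its 7641-bp stretch in both DMSO spike-in lists. With GSK126 the covered length was 6736 bp and 7136 bp, or 88.2% and 93.4%. Both GSK126 values lay below both DMSO values, and the difference was -9.23 ± 3.70 percentage points (SD, n = 2). It was -30.2 with a doubled score floor, where replicate 1 fell by 53.7, and with 2000 bp on either side of the gene start replicate 2 did not differ. In replicate 1 the single DMSO island of 13.2 kb was replaced by islands of 8.4 kb and 3.2 kb with a gap inside the gene, whereas in replicate 2 a single island of 14.4 kb became one of 11.4 kb. The gene start stayed under H3K27me3 in all 8 lists. The standard lists gave a cover of 100% and 100% with DMSO, and 98.6% and 100% with GSK126.

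**Figure D2:**
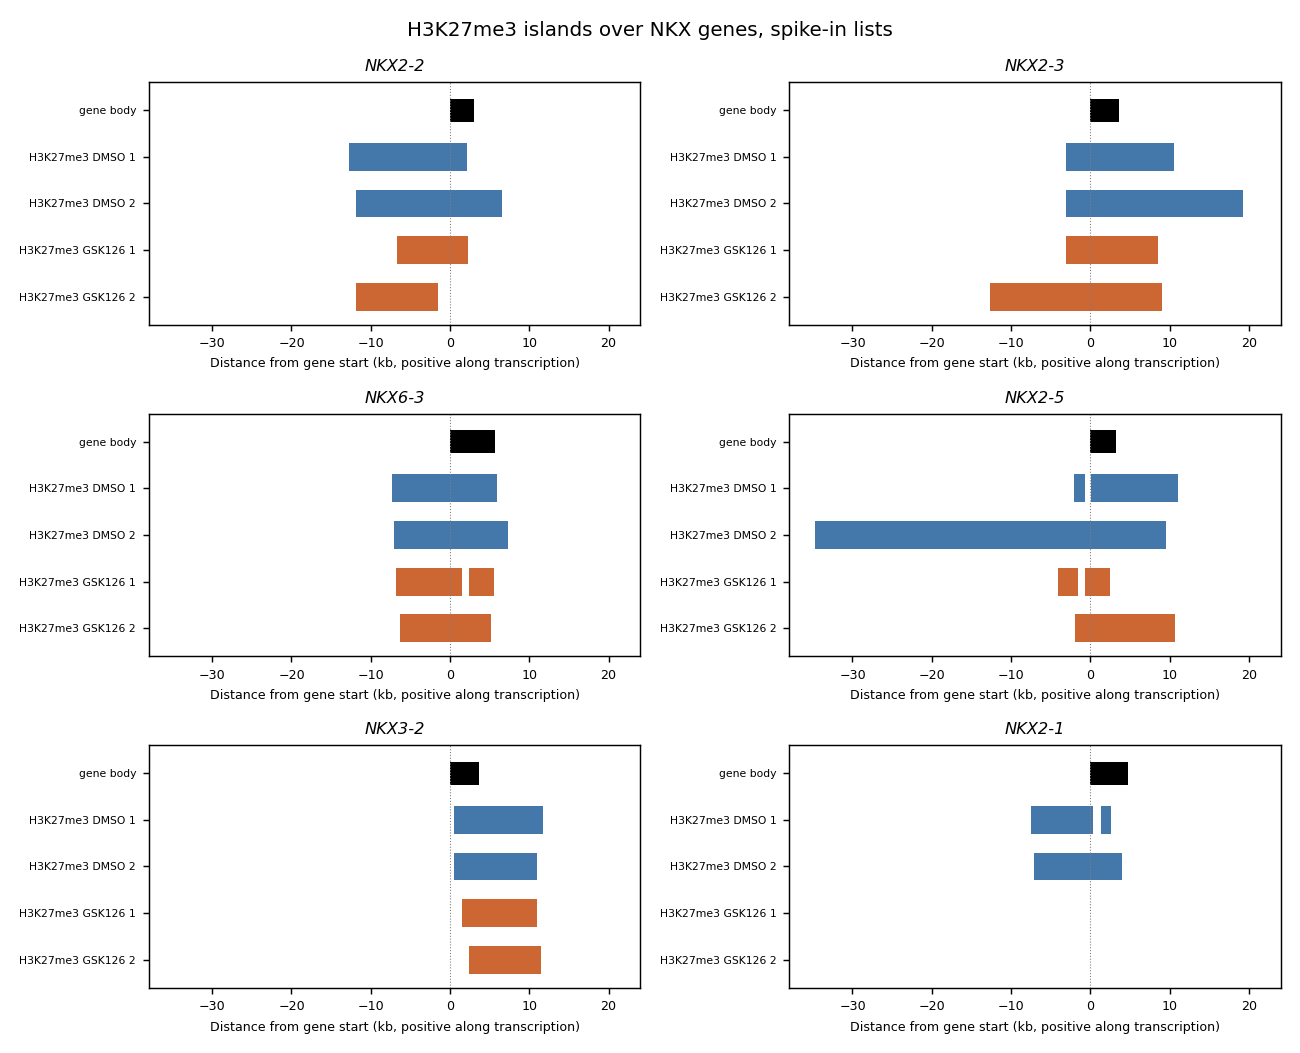
H3K27me3 islands that overlap the stretch of the 5 marked NKX genes and of NKX2-1 in the spike-in lists, by distance from the gene start in kb, with positive distances in the direction of transcription. Blue bars are islands with DMSO, orange bars islands with GSK126 (replicates 1 and 2), black bars the gene bodies and the dotted lines the gene starts. The NKX2-2 island of GSK126 replicate 2 ends at -1499 bp, before the gene start. With GSK126 the NKX3-2 island begins farther from the gene start, and NKX2-1 has none over its stretch.

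NKX2-5 (chr5:172659112-172662314, minus strand) carried H3K27me3 and H3K4me3 largely on the same bases. Its gene start lay outside H3K27me3 in the spike-in list of DMSO replicate 1, and under it in DMSO replicate 2 and with GSK126. Its H3K27me3 cover in the spike-in lists was 84.6% and 100% of the 5203-bp stretch with DMSO and 71.4% and 97.8% with GSK126. It was lower in both replicates, by 689 bp and 114 bp, but the groups overlapped, and the difference of -7.72 ± 7.81 percentage points (SD, n = 2) did not exceed its spread. The value depended on weak islands: those of GSK126 replicate 1 scored 32.5 and 48.5, where the lowest score of that list was 31.6. The mean difference was -30.8 with a doubled score floor, -43.4 with a common score floor and 4.91, reversed, with a minimum island length, and with 2000 bp on either side of the gene start replicate 1 did not differ. The lengths of the islands changed more than the cover of the gene. In DMSO replicate 2 a single island of 44.2 kb ran from position -34686 to position 9513, and with GSK126 it was 12.6 kb long. In replicate 1 a pair of islands with a summed length of 12.4 kb became a pair with 5.8 kb. All 4 standard lists covered the stretch in full. The H3K4me3 island over its start lay inside H3K27me3 islands over 66.7% of its length in DMSO replicate 1 and over 100% in DMSO replicate 2 and in both GSK126 libraries.

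NKX3-2 (chr4:13542454-13546132, minus strand) carried its marks largely side by side in the spike-in lists, H3K4me3 at the start and H3K27me3 over the rest of the gene. In the spike-in lists H3K27me3 covered 3147 bp of the 5679-bp stretch in both DMSO replicates, and 2147 bp and 1347 bp with GSK126. These were 55.4% in both DMSO replicates against 37.8% and 23.7% with GSK126. Both GSK126 values lay below the DMSO values, and the difference of -24.7 ± 9.96 percentage points (SD, n = 2) was larger than its spread. Over the gene body alone the difference was -38.1. The near edge of the island stood 532 bp downstream of the gene start in both DMSO libraries, and 1532 bp and 2332 bp downstream with GSK126, so the edge lay 1000 bp and 1800 bp farther into the gene. The far end moved less, from 11731 bp and 10931 bp with DMSO to 10931 bp and 11531 bp with GSK126. The near edge also differed between lists of the same DMSO library. In the DMSO standard lists it stood 268 bp upstream of the start in replicate 1 and 2132 bp downstream in replicate 2. Whether the lower tag number of the GSK126 spike-in lists moved the edge was not tested. In the standard lists the GSK126 covers did not lie below both DMSO covers. They were 58.9% and 37.8% with GSK126 and 69.5% and 27.2% with DMSO, a mean difference of 0 ± 14.9 percentage points (SD, n = 2). H3K27me3 and H3K4me3 shared 800 bp in DMSO replicate 1 of the spike-in lists and 0 bp in the other 3 pairs of spike-in lists. In the standard lists they shared 1600 bp in DMSO replicate 1, 800 bp in GSK126 replicate 1 and 0 bp in replicate 2 with either treatment. The 250 bp before the RefSeq start are shown as a promoter under H3K4me3 and, in the spike-in lists, outside H3K27me3. They were covered by H3K4me3 in full in both DMSO lists and in GSK126 replicate 1 and over 182 bp in GSK126 replicate 2, and had no H3K27me3 in any spike-in list. In the standard list of DMSO replicate 1 an H3K27me3 island that reached 268 bp upstream of the gene start covered them. The 22 CpG sites of these 250 bp are in capitals.
NKX3-2 promoter, chr4:13546133-13546382, minus strand: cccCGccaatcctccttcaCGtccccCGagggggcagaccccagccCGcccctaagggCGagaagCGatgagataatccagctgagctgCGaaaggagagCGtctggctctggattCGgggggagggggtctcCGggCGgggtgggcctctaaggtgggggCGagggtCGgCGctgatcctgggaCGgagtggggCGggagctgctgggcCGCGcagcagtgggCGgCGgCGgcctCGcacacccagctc

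For comparison, NKX2-1 had both marks with DMSO. Its H3K27me3 cover in the spike-in lists was 52.6% and 88.1% with DMSO and 0% and 0% with GSK126. The 5 marked members kept at least 1 island in each list where NKX2-1 kept none, but NKX2-6, which is not of the lung lineage either, also went to 0% and 0%, from 73.4% and 68.4%. The contrast with NKX2-1 also depends on where the stretch was cut. With GSK126 in replicate 2, NKX2-2 counted through 502 bp of an island upstream of its gene. In that list an H3K27me3 island outside the NKX2-1 stretch ended 51.4 kb from NKX2-8, as the NKX2-1 island of DMSO replicate 1 did. NKX2-1 in the standard lists was at 97.0% and 37.8% with DMSO and 79.2% and 0% with GSK126. H3K4me3 islands covered 56.2% and 38.5% of the NKX2-1 stretch with DMSO, across the gene start in replicate 1 and from position 354 onwards in replicate 2.

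In the standard lists, in which DMSO and GSK126 libraries of a replicate held equal numbers of tags, H3K27me3 cover was lower with GSK126 in both replicates for 0 of the 5 members, against 46.8% of 6133 genes. Those genes had an island in any of the standard lists, whereas all 5 members had one in both DMSO replicates. It was equal in both replicates for 2 of 5 (NKX2-3 and NKX2-5), against 5.22% of genes. The mean over the 5 members was -1.60 and -1.63 percentage points, beside -6.71 and -9.97 over these genes. Neither normalization gave an H3K27me3 island over NKX2-4, NKX2-8, NKX6-1 or NKX6-2.

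The covered share says nothing of how strong the mark was inside an island. The score that the authors deposited for each island was therefore converted to an estimated number of tags per 200-bp window, using the background of its list. This estimate rests on the default window threshold of the peak caller, which is not given in the sources used here, and it averages over windows that differ between lists. For NKX2-3 it was 9.64 and 11.1 tags per window with DMSO and 2.29 and 3.26 with GSK126 in the spike-in lists, so that the gene with an unchanged cover had 0.237 and 0.294 times the DMSO tags. NKX2-5 went from 6.39 and 9.54 to 1.91 and 2.10 tags per window, or 0.299 and 0.220 times. For NKX6-3 the ratios were 0.320 and 0.293, and for NKX3-2 0.397 and 0.381. NKX2-2 had the highest ratios, 0.495 and 0.712, with 7.25 and 10.3 tags per window with DMSO and 3.59 and 7.37 with GSK126. The 7.37 belongs to the island upstream of the gene, which held 502 bp of the stretch and none of the gene body, and is set against an 18.4-kb DMSO island over the gene. All 5 members were lower in both replicates, as were 99.8% of the 3121 genes with an island in all 4 lists. The NKX2-2 values of both groups overlapped (7.37 with GSK126 in replicate 2 against 7.25 with DMSO in replicate 1), and those of the other 4 genes did not. These ratios include the spike-in scaling, by which the study measured the global change in H3K27me3. It left GSK126 backgrounds at 23.1% and 19.6% of those with DMSO. What part of each ratio it makes up was not tested. Divided by the background of its list, the NKX2-3 estimate was 5.82 and 4.76 with DMSO and 5.98 and 7.16 with GSK126. The other marked members were also higher with GSK126 in both replicates by this measure. The share of all genes that were higher was not counted. The median tag ratios of the 3121 genes, 0.341 and 0.304, also exceeded the background ratios of 23.1% and 19.6%. The rise is thus no trait shown to be particular to the members.

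The median ratio of the 5 members was 0.320 in replicate 1 and 0.294 in replicate 2, and that of the 3121 genes was 0.341 and 0.304. The 10th and 90th percentiles of these genes were 0.257 and 0.469 in replicate 1 and 0.208 and 0.449 in replicate 2. NKX2-2 was above the 90th percentile in both replicates and NKX2-3 below the 10th in replicate 1, and the other values of the members lay between. Summed over whole islands, and so with their lengths included, the median ratio of the members was 0.281 and 0.286 and that of the genes 0.164 and 0.144. The lowest summed ratio among the members was that of NKX2-5, 0.140 and 0.0629.

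**Figure D3:**
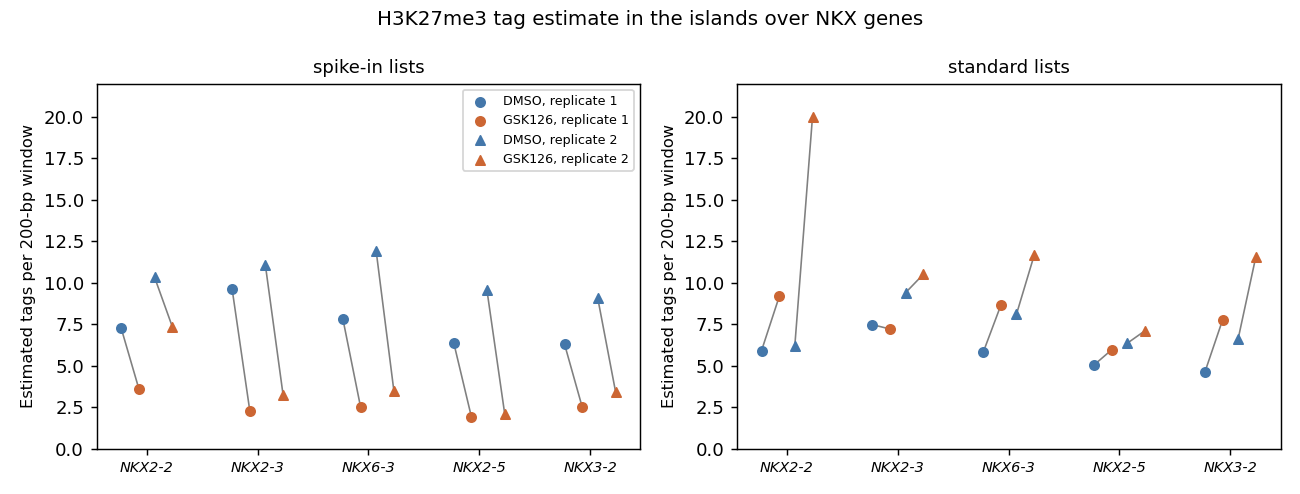
Estimated H3K27me3 tags per 200-bp window in the islands over the 5 marked NKX genes, in the spike-in lists (left) and the standard lists (right). Blue points are DMSO and orange points GSK126, circles are replicate 1, triangles replicate 2, and lines join the libraries of a replicate. In the spike-in lists all 10 lines fall, whereas in the standard lists 9 of 10 rise, that of NKX2-3 in replicate 1 being the exception.

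The direction turned with the normalization. In the standard lists the tags per window over NKX2-2 were 1.55 and 3.24 times the DMSO value with GSK126, those over NKX3-2 1.68 and 1.75 times, those over NKX6-3 1.49 and 1.44 times and those over NKX2-5 1.18 and 1.12 times. NKX2-3 had ratios of 0.964 and 1.12. Of the members 4 of 5 were higher in both replicates, against 56.3% of 4114 genes, and the medians were 1.49 and 1.44 over the members and 1.11 and 1.15 over the genes. NKX2-2 in replicate 2 rose from 6.17 to 20.01 tags per window, while its island shortened from 23.4 kb to 14.2 kb.

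H3K4me3 was found over NKX2-5, NKX2-8, NKX3-2 and NKX6-1, in every H3K4me3 list. In each of these genes the DMSO island was longer in replicate 1 than in the shallower replicate 2, and in each this difference was larger than that between treatments in either replicate. NKX6-1 (chr4:85413138-85420445, minus strand) had the longest island with DMSO, which covered 45.1% and 32.2% of its 9308-bp stretch and reached from position -1355 to position 2844 in replicate 1. With GSK126 it covered 40.8% and 27.9% in the spike-in lists. The difference of -4.30 percentage points was the same in both replicates and amounts to 400 bp, or a pair of windows, and the groups overlapped. NKX2-8 (chr14:37049209-37051819, minus strand) was covered over 73.7% and 43.4% of its 4611-bp stretch with DMSO and over 90.9% and 39.0% with GSK126, so that the replicates moved in opposite directions.

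NKX2-5 and NKX3-2 carried shorter H3K4me3 islands. For NKX2-5 the island was 2.4 kb and 1.6 kb long with DMSO and 2.6 kb and 1 kb with GSK126 in the spike-in lists. That of NKX3-2 measured 2.4 kb and 1.2 kb with DMSO, and 2.8 kb and 0.8 kb with GSK126. Both genes gained in replicate 1 and lost in replicate 2. Of the 4 members, 1 (NKX6-1) had a smaller H3K4me3 cover in both replicates of the spike-in lists, against 35% of the 14505 genes with an island in any of these lists. These were 5074 genes, and 13669 genes had an island in both DMSO replicates, as the 4 members had. The standard lists gave NKX6-1 alone again, 1 of 4 against 35.5% of 14565 genes. None of the 4 lost its islands in both replicates (0.344% of 13669 genes did), and none of the other 5 members gained an H3K4me3 island in both (0.157% of 5741 genes did). These calls depended on the stretch. NKX3-2 was lower in both replicates over the gene body alone, with differences of -5.44 and -3.59 percentage points, and NKX2-5 with 2000 bp on either side of the gene start, with -2.82 and -14.996, in the spike-in lists. NKX6-1 was lower in replicate 2 alone over the gene body.

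**Figure D4:**
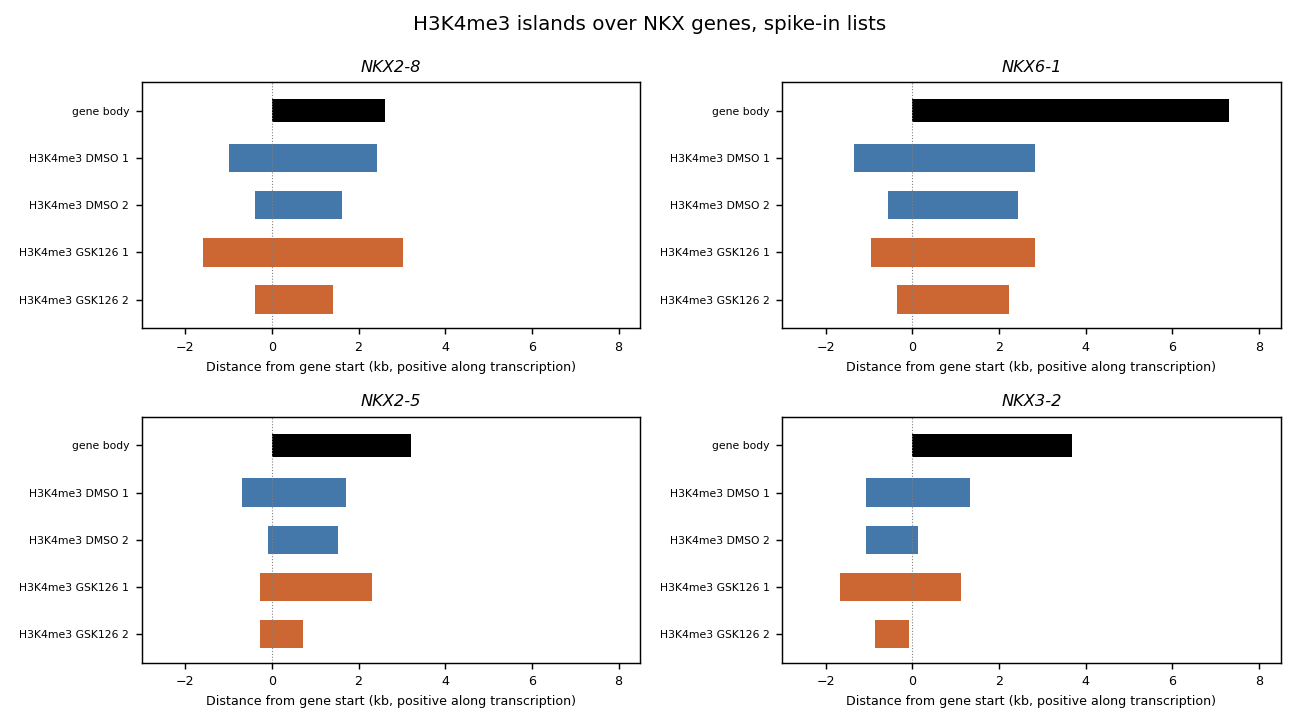
H3K4me3 islands over NKX2-8, NKX6-1, NKX2-5 and NKX3-2, by distance from the gene start in kb, with positive distances in the direction of transcription. Blue bars are islands with DMSO (1 list per library), orange bars islands with GSK126 (spike-in lists), black bars the gene bodies. Islands of replicate 2, the shallower one, are shorter than those of replicate 1 in each gene and treatment, and the GSK126 replicate 2 island of NKX3-2 stops at -69 bp, short of the gene start.

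The strength of H3K4me3 over these genes was estimated in the same way. NKX6-1 had 29.4 and 6.81 tags per window with DMSO and 26.5 and 6.36 with GSK126 in the spike-in lists, with ratios of 0.901 and 0.935. NKX3-2 had 15.6 and 4.16 tags per window with DMSO, 11.5 and 2.96 with GSK126, and ratios of 0.737 and 0.711. The NKX3-2 island of GSK126 replicate 2 scored 24.5, where the lowest score of that list was 21.8, and was gone with a doubled score floor. NKX2-8 had ratios of 0.859 and 1.11, and NKX2-5 of 0.881 and 1.92. The value of 1.92 for NKX2-5 came from replicate 2, in which the island had shortened to 1 kb. Of these genes 2 of 4 were lower in both replicates (NKX3-2 and NKX6-1), against 53.8% of 13402 genes. All genes together had medians of 0.898 and 0.896. The backgrounds of the GSK126 spike-in lists were 83.6% and 86.9% of those of the DMSO lists, and the ratios include this difference. As for the standard lists, 3 of 4 were higher in both replicates (41.5% of 13456 genes), and 1 of 4, NKX3-2, was lower in both, with ratios of 0.978 and 0.880 (10.3% of genes). The 250 bp before the NKX6-1 start are shown as a promoter that was wholly under H3K4me3 in both DMSO lists and both GSK126 spike-in lists and that had no H3K27me3, with its 23 CpG sites in capitals.
NKX6-1 promoter, chr4:85420446-85420695, minus strand: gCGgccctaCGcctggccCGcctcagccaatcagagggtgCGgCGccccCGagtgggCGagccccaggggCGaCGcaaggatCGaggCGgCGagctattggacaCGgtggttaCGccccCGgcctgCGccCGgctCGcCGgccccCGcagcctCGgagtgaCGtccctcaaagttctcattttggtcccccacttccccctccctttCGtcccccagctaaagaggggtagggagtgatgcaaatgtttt

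NKX2-4 (chr20:21376003-21378164, minus strand) and NKX6-2 (chr10:134596683-134599651, minus strand) carried neither mark. For NKX6-2 the nearest H3K27me3 island lay 0.550 kb from the stretch in DMSO replicate 1 and 4.95 kb in DMSO replicate 2, and 4.95 kb and 3.95 kb with GSK126, in the spike-in lists. NKX2-4 was farther from H3K27me3, at 71.8 kb and 32.6 kb with DMSO and 112 kb and 90.8 kb with GSK126. The H3K4me3 genes differed from each other here, since the nearest H3K27me3 island lay at least 51.4 kb from NKX2-8 but at least 1691.5 kb from NKX6-1 in all lists. The nearest H3K4me3 island was at least 90.003 kb from NKX2-4 and 96.5 kb from NKX6-2. A list without an island does not show that a mark was absent, since a window had to exceed the background of its list. The 250 bp before the NKX2-4 start are shown as the contrast, a promoter without an island of either mark. Its 12 CpG sites are in capitals.
NKX2-4 promoter, chr20:21378165-21378414, minus strand: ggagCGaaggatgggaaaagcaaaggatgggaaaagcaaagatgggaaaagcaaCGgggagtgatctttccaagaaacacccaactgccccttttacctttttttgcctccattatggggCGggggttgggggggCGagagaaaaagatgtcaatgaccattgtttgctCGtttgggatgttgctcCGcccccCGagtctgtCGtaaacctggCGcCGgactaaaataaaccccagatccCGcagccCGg

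The promoter sequences came from RefSeq, in a table of build GRCh38.p14, and were found once each in the GRCh37 genome, whose coordinates are given. The table held 7 promoters for 6 of the 9 genes, and the entries of NKX2-5, NKX6-2 and NKX6-3 are missing. The 7 sequences held 12 to 23 CpG sites each, against a median of 11 over 35116 promoters of the same length. The letters AAGTG, searched on both strands as the core to which NK2 homeodomains are known to bind, were present in the promoters of NKX2-2 (upstream start), NKX2-8 and NKX6-1, and in 37.6% of all promoters. CCAAT, also on both strands, was present in those of NKX2-2 (upstream start), NKX3-2 and NKX6-1, and in 32.0% of all promoters. TATAAA, on both strands as well, was present only before the second NKX2-2 start, and in 10.7% of all promoters. None of the 3 motifs is part of another, and a match describes the letters and no more.

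CpG content was highest in the members without either mark, and the other states overlapped. In the 2000 bp around the GENCODE start, the observed number of CpG sites divided by the number that base composition gives was 1.02 for NKX6-2 and 0.960 for NKX2-4, which had neither mark. It was 0.823 for NKX3-2 and 0.510 for NKX2-5, which had both marks, 0.750 for NKX6-1 and 0.649 for NKX2-8, which had H3K4me3, and 0.712 for NKX2-2, 0.572 for NKX2-3 and 0.504 for NKX6-3, which had H3K27me3. The median over 20144 genes was 0.612. Genes without an island of either mark in the DMSO lists had a median of 0.253 and 10th and 90th percentiles of 0.125 and 0.659, so NKX2-4 and NKX6-2 were both above that range. Genes with H3K27me3 alone had a median of 0.331 and genes with H3K4me3 alone one of 0.687.

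**Figure D5:**
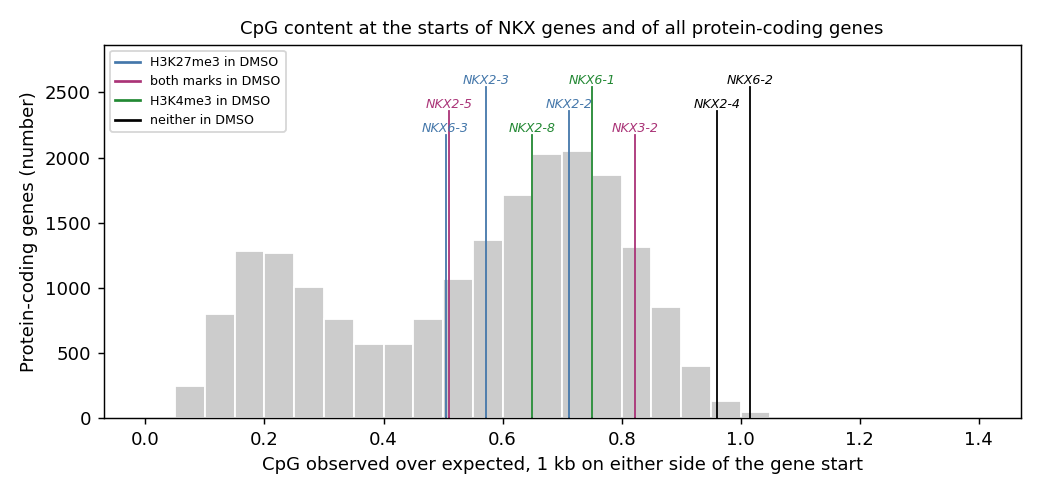
Observed over expected CpG content in the 1 kb on either side of the gene start, as a histogram over 20144 protein-coding genes (grey bars, number of genes) with a line for each NKX gene, coloured by the marks it carried with DMSO. The lines of NKX2-4 (0.960) and NKX6-2 (1.02), which carried neither mark, stand at the right end of the histogram, and those of the 5 genes with H3K27me3 spread from 0.504 to 0.823.

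Other genes of the programmes in which the NKX genes act were counted in the same lists. Of all genes, 27.6% had H3K27me3 in both DMSO replicates. Of the genes with an island in any of the 4 spike-in lists 77.4% had less in both replicates. These were 4999 genes, all among the 5573 with an island in both DMSO replicates. Of those with one in both DMSO replicates 32% lost every island. A gene can be lower in both replicates only if it had H3K27me3 in both DMSO replicates. Of 12 ventral neural tube genes, 9 had H3K27me3 in both DMSO replicates, 6 of these 9 had a smaller cover with GSK126 in both replicates of the spike-in lists, and 2 lost every island. SHH, the ligand that induces NKX2-2 and NKX6-1 in the neural tube, went from 77.9% and 91.7% to 16.6% and 38.2%, whereas GLI1, a target of this pathway, was at 84.6% and 88.7% with DMSO and at 86.0% and 88.7% with GSK126. Of 10 endocrine pancreas genes 7 had H3K27me3 with DMSO, 5 had less in both replicates and 0 lost every island. NEUROG3, which starts the endocrine programme, was covered over 100% in all 4 lists, as NKX2-3 was, while MNX1 went from 72.1% and 82.8% to 13.97% and 0%. Of 8 heart and mesoderm genes 4 had H3K27me3 with DMSO and 3 had less in both replicates, TBX5 going from 68.0% and 79.0% to 42.5% and 45.01% and HAND1 staying at 100%. Among 14 other homeobox genes of the NK class, NKX2-1 included, 11 had H3K27me3 with DMSO, 8 had less in both replicates and 6 lost every island. TLX2 went from 78.7% and 85.7% to 0% and 0%, and NKX2-6 from 73.4% and 68.4% to 0% and 0%, while TLX1 and LBX1 stayed at 100%. The count of 6 of 11 stood beside 0 of 5 for the NKX genes examined here and 32% of all genes. This difference was not tested, because the lists were drawn up with results of these data known. All 6 housekeeping genes had H3K4me3 in both DMSO replicates, and 1 of 6, ACTB, had H3K27me3, at 6.08% and 18.7% with DMSO and 0% with GSK126.

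The genes most like the mean of the 9 members in covered share over the 14 lists were ZNF232, IRF5, ARHGEF1, CLP1 and DOK7, at root mean square differences of 2.31, 3.19, 4.11, 5.01 and 5.43 percentage points. The members themselves lay farther from this mean, at 13.7 to 45.6 percentage points, since it averages over 4 states.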

How the data were processed

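ChIP-seq peak calls for H3K27me3 and H3K4me3 in PC9 cells were used, as 14 lists from 8 libraries. The authors aligned tags to hg19 (GRCh37) with BWA, removed duplicates and tags without a unique position, removed human tags at random for either normalization, and called islands with SICER separately in each library (windows 200 bp, E-value 1, gap 600 bp in H3K27me3 and 200 bp in H3K4me3). The submitters' processing notes also name SAMtools 0.1.18. The deposited island score adds up, window by window, minus the natural log of the Poisson chance of its tags. Antibody and treatment came from the sample labels, which carry no replicate numbers. Libraries were paired as in the study, which scaled tags within a replicate. The study describes its replicates as biological.

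Covered base pairs were computed over the gene body plus 2000 bp upstream (GENCODE on GRCh37) with Python 3.11.15 and NumPy 2.4.6. SciPy 1.17.1 was used to fit each list's background rate to its islands of 1 and 2 windows, and every fitted score was matched within 1e-05. Tags per window were estimated by inverting the expected Poisson score, with an assumed window p-value of 0.2. The steps were tested on simulated data, and plots were drawn with Matplotlib 3.10.9. In the simulation the tag estimate had to come near the truth, not match it. The simulated enrichment was lower than that of some islands over the members, so the estimate was not tested for those. All 9 genes were named, with NKX2-1 for comparison, and from other lists the genes with the largest and smallest mean changes among those with H3K27me3 in both DMSO replicates. The members and lists were chosen with earlier results of these data known. Alternatives were other stretches, score floors, island lengths, measures of strength and counting thresholds, each replicate left out, and no pairing. Depth is given as the background of each list, and no counting interval was computed, since the island lists give no tag count per window or island.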

Additional observations from a re-analysis of the deposited data

Results flagged for a closer look

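NKX3-2 was flagged in the standard lists because its tag ratios were above 1 for H3K27me3 and below 1 for H3K4me3 in both replicates. With GSK126 its H3K27me3 tags per window were 1.68 and 1.75 times the DMSO value in replicates 1 and 2, whereas its H3K4me3 tags per window were 0.978 and 0.880 times. This difference between the marks was not tested. Its H3K4me3 side was weak, since 0.978 is close to no change. The 0.880 came from a GSK126 island of 0.8 kb with a score of 30.7, where the lowest score of that list was 22.6. With a doubled score floor that island was gone. In the spike-in lists both marks were lower with GSK126, at 0.397 and 0.381 times for H3K27me3 and 0.737 and 0.711 times for H3K4me3. Groups of 2 libraries were too small for a search for outlying samples.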

How the results depend on the processing

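With 2 replicates the smallest p of an exact permutation test is 0.333, and the depth of a list limits which windows can join an island. The count of 3 NKX genes with less H3K27me3 in both replicates of the spike-in lists was 1 with 2000 bp on either side of the gene start, and otherwise 2 to 4. It was 2 without the replicate pairing, where both GSK126 values had to lie below both DMSO values. The mean change of -9.40 percentage points was -14.5 to -4.30 with a replicate left out, and NKX2-2 in replicate 2 set the lower value. In the standard lists the mean of -0.897 was -1.06 over the gene body alone, -0.182 with 2000 bp on either side of the start and 4.58, reversed, with 5000 bp upstream, where NKX2-3, NKX2-5 and NKX6-2 gained 15.1, 15.8 and 15.4. The count of 0 there was 1 to 2 with a replicate left out. The H3K4me3 count of 1 in the spike-in lists became 2 with 2000 bp on either side of the start, 0 without the replicate block and 0 for changes of at least 5 percentage points. The count of the standard lists became 2 over the gene body alone and 2, 0 and 0 under these same 3 settings. With a replicate left out it was 1 to 4 in both. The mean H3K27me3 tag ratio of 0.365 in the spike-in lists was 0.392 with a doubled score floor, 0.651 from the score per kilobase, which depends on the background of the list, and 0.258 for tags summed over islands, a measure added after the data were seen. That of 1.55 in the standard lists was 2.06 from the score per kilobase. No H3K4me3 gene was left (0 in place of 4) where islands had to cover 50% of the stretch. For single genes, 298 of 334 values stayed within the spread, 34 moved and 2 reversed: the NKX2-5 change in the spike-in lists was 4.91 percentage points with a minimum island length of 2000 bp, and the NKX2-2 ratio 1.26 from the score per kilobase. The 298 are no measure of robustness. They include members without an island of the mark, where 0 was compared with 0. They also include left-out replicates, which with 2 replicates always lie within the SD. Pairing changed no other call. The causes of these changes were not tested.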
